A study of Homo sapiens with 6 samples.

Results

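Circular RNAs made from the zinc transporter genes of the SLC39A (ZIP) and SLC30A (ZnT) families were examined in BEAS-2B cells, which derive from human bronchial epithelium and were immortalised. A circular RNA (circRNA) forms when splicing joins an exon end to an earlier exon start, and only reads over that back-splice junction were counted for it. The members were all circRNAs whose only annotated host gene has a name starting with SLC39A or SLC30A, a rule that uses no level. There were 12 of them among 9857 listed circRNAs, from 7 of 3742 host genes. The ZIP family gave 4 circRNAs from SLC39A8, SLC39A9 and SLC39A11, and the ZnT family 8 from SLC30A4, SLC30A5, SLC30A7 and SLC30A9. These are 3 of 14 ZIP and 4 of 10 ZnT genes, where 18.2% of 19969 protein-coding genes were hosts. SLC39A14, whose product also carries cadmium, and SLC30A1, the zinc exporter of the cell surface, had no circRNA in the files analysed here. Cells cultured in 2.0 µM cadmium for 20 weeks (3 libraries of total RNA) were set against cells cultured for the same time at 0.0 µM (3 libraries). All 6 libraries came from 1 cell line grown in DMEM with serum and passaged every 3 days, and all were depleted of ribosomal RNA and treated with RNase R, an exonuclease that digests linear RNA. Nothing in the labels says that replicates were grown separately, so each p-value weighs a difference against the spread of these libraries, possibly a technical one. The comparison asks whether circRNAs of the genes that carry zinc and cadmium differ after long cadmium exposure.

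ZIP proteins move zinc and related divalent metals into the cytosol, from outside the cell or out of organelles, and ZnT proteins move zinc the other way. Cadmium has no carrier of its own and enters cells on proteins made for essential metals. ZIP8, the product of SLC39A8, carries cadmium as well as zinc and manganese, and in mice the locus that decides sensitivity of the testis to cadmium holds Slc39a8. ZIP9 (SLC39A9) and ZIP11 (SLC39A11) are further importers of the family. ZnT5 (SLC30A5) and ZnT7 (SLC30A7) load zinc into the early secretory pathway, where alkaline phosphatases receive it. ZnT4 (SLC30A4) fills vesicles with zinc, and ZnT9 (SLC30A9) acts in mitochondria.

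The central member is hsa_circ_0002782 of SLC39A8 (ENSG00000138821), the single circle of the cadmium importer gene. It spans chr4:102304317-102315830 (GRCh38, minus strand) and joins the end of exon 6 to the start of exon 3 of a 9-exon coding transcript. Its 621 bases lie wholly within the coding sequence and hold codons 74 to 280 of 460. The only SLC30A5 member (ENSG00000145740), hsa_circ_0005839, spans chr5:69104631-69114496 (plus strand). It holds exons 4 to 7 of 16, 339 bases and codons 92 to 204 of 765. The reads counted for each gene come from that circle alone, so 300 bases around both back-splice junctions are shown, 5′ to 3′, with 150 on each side. Capitals mark the 20 bases before the junction (end of exon 6 or 7) and the 20 bases after it (start of exon 3 or 4).
SLC39A8 hsa_circ_0002782: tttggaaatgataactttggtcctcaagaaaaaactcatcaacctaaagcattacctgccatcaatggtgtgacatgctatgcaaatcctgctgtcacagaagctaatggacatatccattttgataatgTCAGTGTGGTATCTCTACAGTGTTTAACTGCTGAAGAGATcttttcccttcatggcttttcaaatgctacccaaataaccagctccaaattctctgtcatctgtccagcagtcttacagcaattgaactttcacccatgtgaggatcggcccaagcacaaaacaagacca
SLC30A5 hsa_circ_0005839: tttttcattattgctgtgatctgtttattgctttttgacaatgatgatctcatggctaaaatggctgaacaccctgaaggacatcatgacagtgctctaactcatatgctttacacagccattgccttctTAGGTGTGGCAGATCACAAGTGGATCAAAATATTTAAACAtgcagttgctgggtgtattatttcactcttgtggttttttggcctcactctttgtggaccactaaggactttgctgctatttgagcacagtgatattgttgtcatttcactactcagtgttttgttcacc
Both lengths are multiples of 3. Read in the frame of the host protein round the junction, with all annotated exons kept, neither circle meets a stop codon in its 207 and 113 codons. The deposited blocks of the SLC39A8 circle add up to only 328 of its 621 bases. Junction reads do not show which inner exons it keeps, so its frame is that of the annotated exons. There are 2 in-frame ATG codons in the SLC39A8 circle and 3 in the SLC30A5 circle, and neither holds the start codon of its gene.

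SLC30A7 (ENSG00000162695, plus strand) gave 4 nested circles, more than any other member gene. The longest, hsa_circ_0000098 (chr1:100906852-100921841), joins exon 8 back to exon 3 of the 11-exon transcript and has 660 bases. Exon 8 is joined back to exon 4 in hsa_circ_0013348 (chr1:100911063-100921841, 546 bases) and to exon 6 in hsa_circ_0013353 (chr1:100913663-100921841, 331 bases). The remaining circle, hsa_circ_0013339 (chr1:100906852-100913806, 473 bases), joins exon 6 back to exon 3. The junction sequences show which ends are shared. Lower-case letters are the last 20 bases of the downstream exon and capitals the first 20 bases of the upstream exon.
SLC30A7 hsa_circ_0000098: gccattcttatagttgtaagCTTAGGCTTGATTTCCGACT
SLC30A7 hsa_circ_0013348: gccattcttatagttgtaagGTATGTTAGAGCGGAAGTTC
SLC30A7 hsa_circ_0013353: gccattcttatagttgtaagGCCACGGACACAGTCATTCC
SLC30A7 hsa_circ_0013339: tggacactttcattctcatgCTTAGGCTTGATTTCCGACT
The same exon 8 end stands in the first 3 and the same exon 3 start in the first and the last. The intron after exon 8 is 39986 bases long.

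The other members come from SLC30A9, SLC39A9, SLC30A4 and SLC39A11. SLC30A9 (ENSG00000014824, plus strand) gave hsa_circ_0069590 (chr4:42001616-42049479, exons 2 to 9 of 18, 731 bases) and novel_circ_0029559 (chr4:42001616-42023384), which share the start of exon 2. The deposited blocks of the second add up to 401 bases, against 501 in the annotated exons 2 to 6, so the printed exon numbers do not give its make-up. SLC39A9 (ENSG00000029364, plus strand) gave hsa_circ_0032349 (chr14:69453241-69455866, exons 4 to 6 of 7, 290 bases) and novel_circ_0007749 (chr14:69441832-69442266, 339 bases), whose pair of exons was matched in a transcript annotated with a retained intron. The SLC30A4 circle novel_circ_0008629 (ENSG00000104154, chr15:45488841-45490881, minus strand) holds exons 4 and 5 of 8 in 356 bases. Its junction is given because it is the one member listed in control libraries only.
SLC30A4 novel_circ_0008629: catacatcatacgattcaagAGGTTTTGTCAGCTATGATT
The SLC39A11 circle novel_circ_0013083 (ENSG00000133195, chr17:72841758-72849804, minus strand, 348 bases) is classed as intronic in the deposited annotation. One of its blocks, of 211 bases, equals an exon of an SLC39A11 transcript not annotated as coding, and the other, of 137 bases, overlaps no annotated exon.

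**Figure D1:**
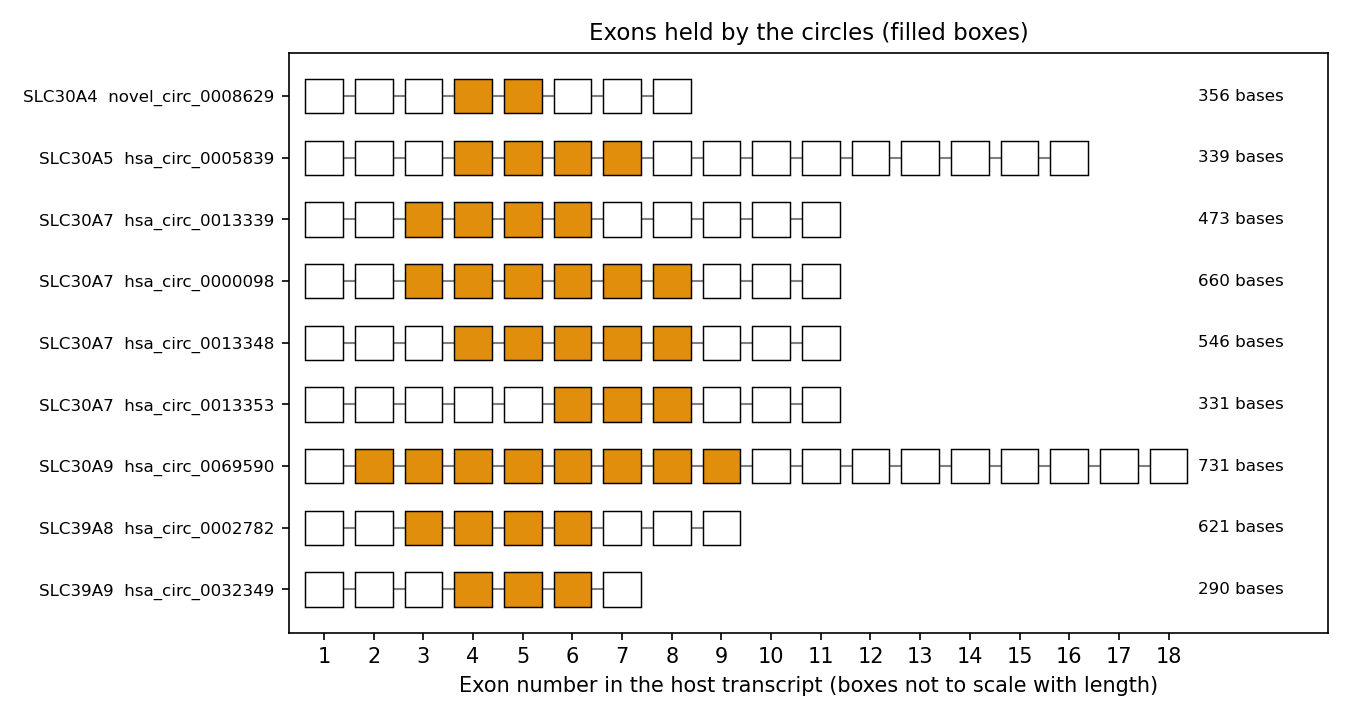
Exons of the host transcript (horizontal axis, exon number) held by the 9 member circles whose deposited length equals that of consecutive annotated exons of a coding transcript (rows). Filled boxes are the annotated exons between the circle ends, from exons 2 to 9 in the SLC30A9 circle to exons 4 and 5 in the SLC30A4 circle, and none of the 9 holds a first or last exon.

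In structure the members were like other exonic circles in most respects. Of the 11 exonic members, 11 held neither the first nor the last exon of the transcript, against 99.6% of 8904 exonic circRNAs matched to a transcript. Their median spliced length was 401 bases (range 290 to 731), against 382 bases over the 8904. All 10 on a coding transcript were wholly coding, against 85.5% of 8589. Of the members, 8 of 12 carried a circBase-style hsa_circ name (66.7%), against 68.0% of all listed circRNAs. Flanking introns had medians of 10900 bases upstream and 11000 downstream, against 6500 and 5850 over all matched circles. Among the members they ran from 1420 to 28600 bases upstream and from 740 to 40000 downstream. For the SLC39A8 circle they were 28613 and 36237 bases, but for the SLC30A5 circle 1502 and 740. The SLC30A7 circles that end at exon 8 share 1 downstream intron of 39986 bases, which enters the median once for each. The deposited exon blocks of 3 members add up to less than the deposited length (328 of 621 bases for hsa_circ_0002782, 479 of 731 for hsa_circ_0069590 and 224 of 546 for hsa_circ_0013348), and junction reads do not show which inner exons a circle keeps. As circles of 1 gene share exons and introns, these values are a description without a test.

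Junction reads summed over all circRNAs ran from 133185 to 160248 in cadmium libraries and from 137919 to 225769 in control libraries. The members took 76, 84 and 97 of them in cadmium replicates 1 to 3, and 158, 84 and 124 in control replicates 1 to 3. Counts per single member ran from 0 to 49 per library, so these values carry large counting errors. The smallest count listed above 0 is 2 and no value of 1 occurs, so a listed 0 may stand for 1 read. The files are themselves filtered by level, since 9857 of 9857 circRNAs have reads in every library of at least 1 group. Of the 12 members 7 have reads in all 6 libraries. The other 5 are listed through 1 group: novel_circ_0008629, hsa_circ_0013339 and novel_circ_0007749 through the controls, and hsa_circ_0013348 and hsa_circ_0032349 through the cadmium libraries. A 0 of theirs in the other group is tied to this listing, so no p-value from the fits is given for these 5 circles one by one. Of these, only novel_circ_0007749 passed the filter on low counts, and it is counted among the tested single circRNAs. No library was a copy of another of its group, since their counts differed beyond sampling (chi-square 1.59 to 2.49 per degree of freedom). Control replicates 1 and 3 stood apart from the other 4 libraries in the share of junction reads among locus reads, given below, so main values are also given without them. Of 14 epithelial marker genes 0 were listed as hosts, and likewise 0 of 6 blood cell and 0 of 4 endothelial markers, while 2 of 11 fibroblast and mesenchymal markers were (ZEB1 and ZEB2, summed level 263 to 371 in cadmium and 372 to 439 in control libraries, as reads per 1000000). A gene is seen here only if it forms circles, so the label of bronchial epithelium could not be checked, and the part of ZEB1 and ZEB2 in the results was not tested.

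SLC30A7 had the highest summed level of the 7 genes in both groups. Levels are CPM, junction reads scaled to a library total of 1000000 with edgeR's TMM factors, and have no length term because each circle is counted at its one junction. In cadmium libraries SLC30A7 averaged 225 ± 18.4 CPM, followed by SLC30A5 (105 ± 23.4), SLC39A8 (94.6 ± 19.9), SLC30A9 (86.2 ± 25.2), SLC39A9 (68.4 ± 39.7) and SLC39A11 (41.6 ± 17.0), and SLC30A4 was at 0. In control libraries it averaged 246 ± 34.9 CPM, followed by SLC39A8 (196 ± 29.9), SLC30A9 (77.1 ± 38.8), SLC39A11 (65.4 ± 1.65), SLC30A5 (53.3 ± 37.9), SLC39A9 (52.2 ± 24.2) and SLC30A4 (28.0 ± 8.88; SD, n = 3 throughout). With cadmium the libraries of SLC30A7 (209 to 245) lay above those of SLC39A8 (76.6 to 116), whereas in controls those ranges met (223 to 287 and 172 to 229). The SLC30A7 level is a sum over 4 circles, that of SLC39A8 a single circle. The highest SLC30A7 circle, hsa_circ_0000098, averaged 95.5 CPM with cadmium and 136 CPM in controls. The SLC39A8 circle, scaled in the same way over single circRNAs, averaged 98.0 and 205 CPM. In cadmium libraries SLC39A8 overlapped SLC30A5 (84.2 to 130) and SLC30A9 (58.7 to 108). In controls it lay above SLC30A9 (52.1 to 122). Among all 3742 host genes SLC30A7 ranked 1030th by mean level and SLC39A8 1484th, and SLC30A4 ranked 3625th.

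**Figure D2:**
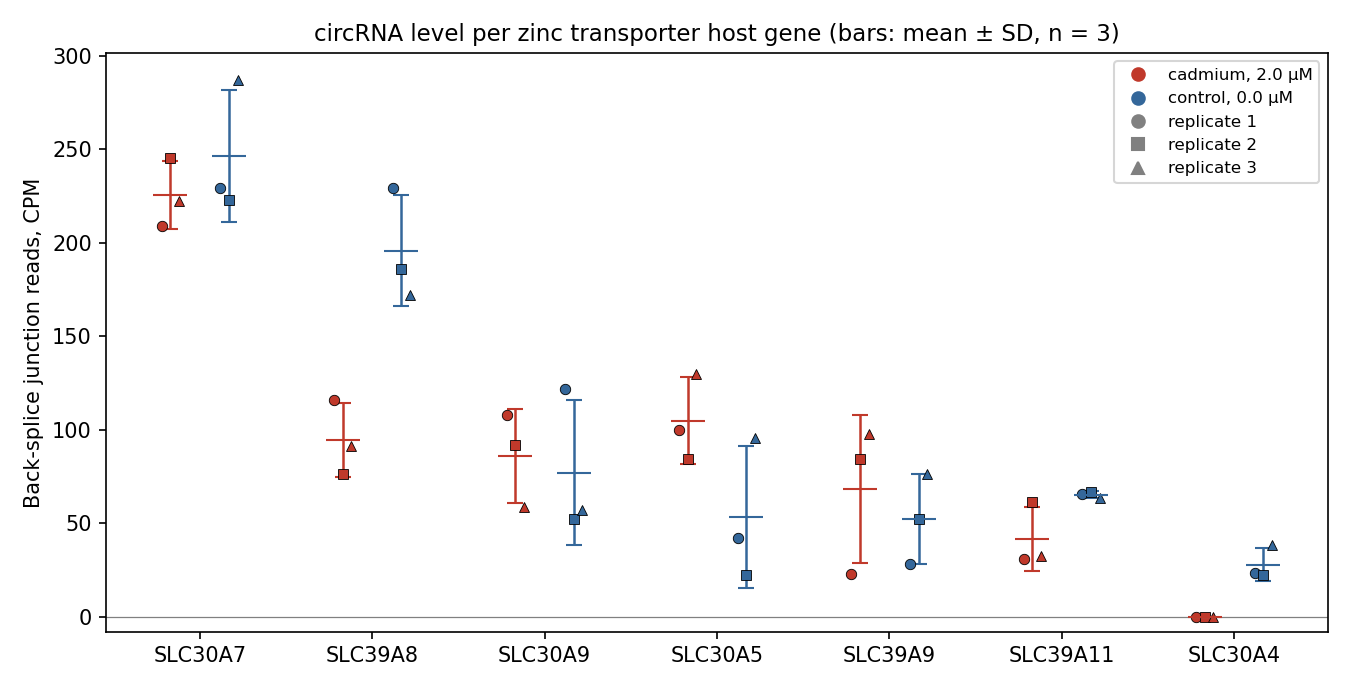
Summed back-splice junction reads per host gene in CPM (vertical axis) for the 7 genes in order of mean level, with cadmium libraries (red) left of control libraries (blue), 1 point per library, and the mean with SD (n = 3). SLC39A8 shows cadmium libraries at 76.6 to 116 CPM, below the controls at 172 to 229 CPM, while the groups of SLC30A7 overlap.

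Among the importers, the SLC39A8 circle was lower with cadmium in all 3 libraries but did not pass the test over all host genes. It had 15, 10 and 14 reads in cadmium replicates 1 to 3, against 49, 25 and 27 in control replicates 1 to 3. In CPM these were 116, 76.6 and 91.2 with cadmium, against 229, 186 and 172 in controls. The highest cadmium library was thus below the lowest control. The log2 fold change was -1.06 (SE 0.31, 95% interval -1.71 to -0.40), or 0.48 times the control level, with an unadjusted p of 0.0037 and an adjusted p of 0.203 in edgeR's quasi-likelihood test. By p it ranked 52nd of 3008 host genes, of which 6.58% were lower at an unadjusted p under 0.05. Tested as a single circRNA among 6182, the same reads gave -1.07 (SE 0.30, edgeR adjusted p = 0.398). With control replicate 2 as the only control, whose spread is then taken from the cadmium libraries, the log2 fold change was -0.99 (edgeR adjusted p = 0.625).

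The other 2 importer genes were counted with fewer reads. The SLC39A11 circle had 4, 8 and 5 reads with cadmium, against 14, 9 and 10 in controls. Its level was 30.9, 61.2 and 32.6 CPM with cadmium and 65.5, 67.0 and 63.7 CPM in controls, so its groups did not overlap, although cadmium replicate 2 came within a few CPM of the controls. Its log2 fold change was -0.65 (SE 0.50, 95% interval -1.71 to 0.41, edgeR adjusted p = 0.625), and -1.03 without cadmium replicate 2 (edgeR adjusted p = 0.524). For SLC39A9 the summed reads were 3, 11 and 15 with cadmium and 6, 7 and 12 in controls, and the groups overlapped (log2 fold change 0.44 with SE 0.56, edgeR adjusted p = 0.775). That value rests on single libraries. Leaving out cadmium replicate 3 or control replicate 1 gave 0.08, and leaving out cadmium replicate 2 gave 0.28. Leaving out cadmium replicate 1 or control replicate 3 gave 0.83. Both circles in this sum are listed through 1 group. The SLC39A9 circle hsa_circ_0032349 had 3, 2 and 7 reads with cadmium and 0, 2 and 6 in controls, the 0 standing in the deepest library. The circle novel_circ_0007749 of the same gene had 0, 9 and 8 reads with cadmium and 6, 5 and 6 in controls.

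Among the exporters, SLC30A5 stood higher with cadmium, but its groups overlapped and it did not pass the test. Its circle had 13, 11 and 20 reads with cadmium, against 9, 3 and 15 in controls. The levels were 100, 84.2 and 130 CPM with cadmium and 42.1, 22.3 and 95.5 CPM in controls, and control replicate 3 lay above cadmium replicate 2. The log2 fold change was 0.97 (SE 0.47, 95% interval -0.04 to 1.98, edgeR unadjusted p = 0.0582, adjusted p = 0.423). This estimate rests on single control libraries. It was 0.66 without control replicate 2, which had 3 reads, and 1.62 without control replicate 3 (edgeR adjusted p = 0.663 and 0.291). With control replicate 2 as the only control it was 2.18 (edgeR adjusted p = 0.554).

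For the other ZnT genes the sums differed by less than the spread between libraries or could not be tested. SLC30A7 had 27, 32 and 34 reads with cadmium, against 49, 30 and 45 in controls. As levels these were 209, 245 and 222 CPM with cadmium and 229, 223 and 287 CPM in controls, and the groups overlapped (log2 fold change -0.13, SE 0.23, 95% interval -0.62 to 0.36, edgeR adjusted p = 0.840). This interval is the narrowest among the 6 tested member genes. The log2 fold change was -0.02 without control replicate 3, and -0.20 without cadmium replicate 2 or without control replicate 1. The SLC30A7 sum includes hsa_circ_0013348, listed through the cadmium libraries, and hsa_circ_0013339, listed through the controls. Its fold change and p-value are partly tied to this listing. The 2 SLC30A7 circles with reads in every library had 22, 24 and 26 reads with cadmium, against 43, 27 and 41 in controls. Their sum was not tested. SLC30A9 had 14, 12 and 9 reads with cadmium and 26, 7 and 9 in controls, with a log2 fold change of 0.09 (SE 0.44, edgeR adjusted p = 0.948). Its sign turned when cadmium replicate 1, control replicate 2 or control replicate 3 was left out. The SLC30A4 circle was listed at 0 in cadmium replicates 1 to 3, against 5, 3 and 6 reads in controls. It is listed through the controls, was too weak for the filter on low counts and was not tested. Circles at 0 with cadmium and above 0 in all controls made up 2.15% of the 9857 listed. The antisense genes AC010273.1 and AC025580.2 lie on the opposite strand across the SLC30A5 and SLC30A4 circles. The libraries keep the strand, but no source used here says whether the counting used it.

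**Figure D3:**
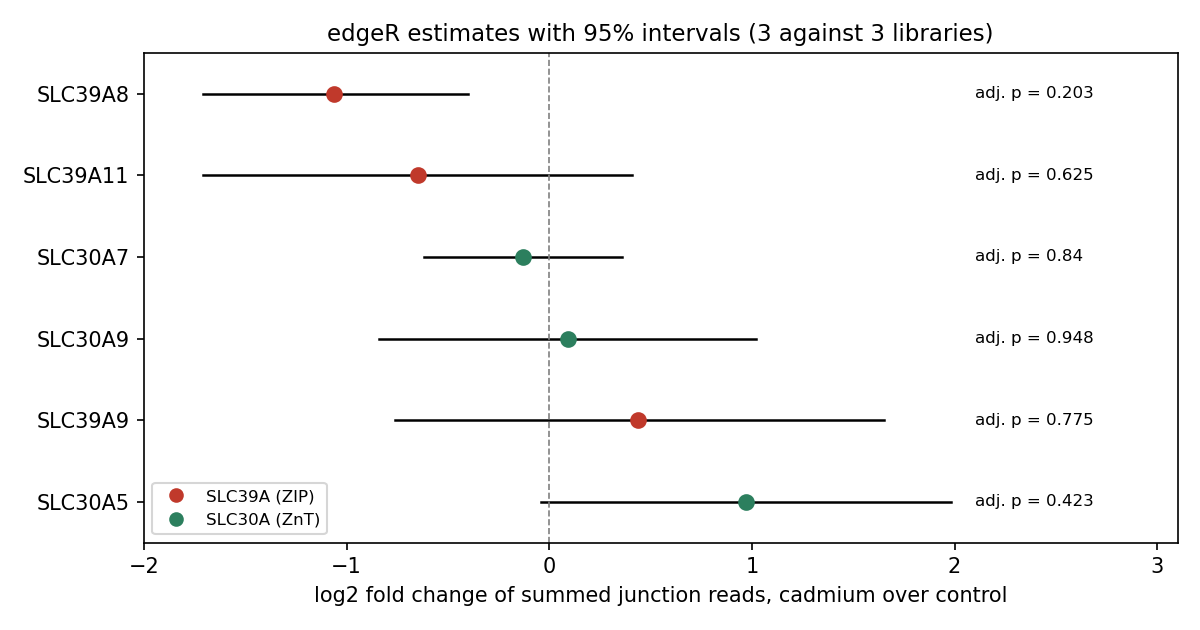
Log2 fold change of summed junction reads, cadmium over control (horizontal axis), with its 95% interval from edgeR for the 6 tested member genes (rows; red ZIP, green ZnT). The interval of SLC39A8, -1.71 to -0.40, lies below 0, the other 5 cross 0, and no adjusted p is under 0.05.

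As a set the tested members showed no common direction. Of 7 host genes 6 passed the filter, and 3 of them were higher and 3 lower with cadmium, with a median log2 fold change of -0.02 against 0.00 over all 3008 tested. Of the 6, 0 rose and 0 fell, where 0.233% of all host genes passed the adjusted threshold of 0.05. At an unadjusted p under 0.05 there was 1 lower (SLC39A8) and 0 higher, where 6.58% of all host genes were lower and 5.92% higher under that bound. Groups did not overlap for SLC39A8 and SLC39A11, both lower, where groups did not overlap in 10% of host genes with cadmium lower and in 9.31% with cadmium higher. Of the 12 single circRNAs 8 passed the filter, and 0 rose or fell, where 0.0809% of 6182 did. The 8 had 4 positive and 4 negative log2 fold changes with a median of -0.06, against -0.01 over all. They include novel_circ_0007749, which is listed through the controls. Summed over the 3 importer genes, levels were 170, 222 and 222 CPM with cadmium, against 323, 305 and 312 CPM in controls. Summed over the 4 ZnT genes they were 417, 421 and 411 CPM with cadmium, against 417, 320 and 478 CPM in controls. SLC39A8 makes up most of the importer sum in controls, so this sum is not independent of its own values.

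The mix of the 4 SLC30A7 circles was compared next, since it does not depend on how libraries are scaled. The circle of exons 3 to 8, hsa_circ_0000098, took 37.0%, 46.9% and 38.2% of the gene's junction reads with cadmium, against 61.2%, 46.7% and 51.1% in controls. The group means were 40.7% ± 5.37 with cadmium and 53.0% ± 7.46 in controls (± SD of 3 libraries, difference -12.3 percentage points, two-sided exact permutation p = 0.2, adjusted p = 0.8 over 8 circles). Cadmium replicate 2 lay just above control replicate 2, so the groups overlapped. The circle of exons 4 to 8, hsa_circ_0013348, took 18.5%, 15.6% and 8.82% with cadmium, against 6.12%, 0% and 0% in controls. The group means were 14.3% ± 4.98 with cadmium and 2.04% ± 3.53 in controls (± SD of 3 libraries), from 5, 5 and 3 reads with cadmium and 3, 0 and 0 in controls. This circle is listed through its cadmium libraries, so the higher share there is a description without a test. Its reads also enter the total behind the other SLC30A7 shares, so the permutation p-values of those shares are tied to this listing too. The circle of exons 6 to 8, hsa_circ_0013353, took 36.9% ± 8.24 with cadmium and 36.6% ± 8.90 in controls (± SD of 3 libraries, exact permutation p = 1.0). As single circRNAs, hsa_circ_0000098 had a log2 fold change of -0.52 (SE 0.34, edgeR adjusted p = 0.710) and hsa_circ_0013353 -0.13 (SE 0.39, edgeR adjusted p = 0.960).

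**Figure D4:**
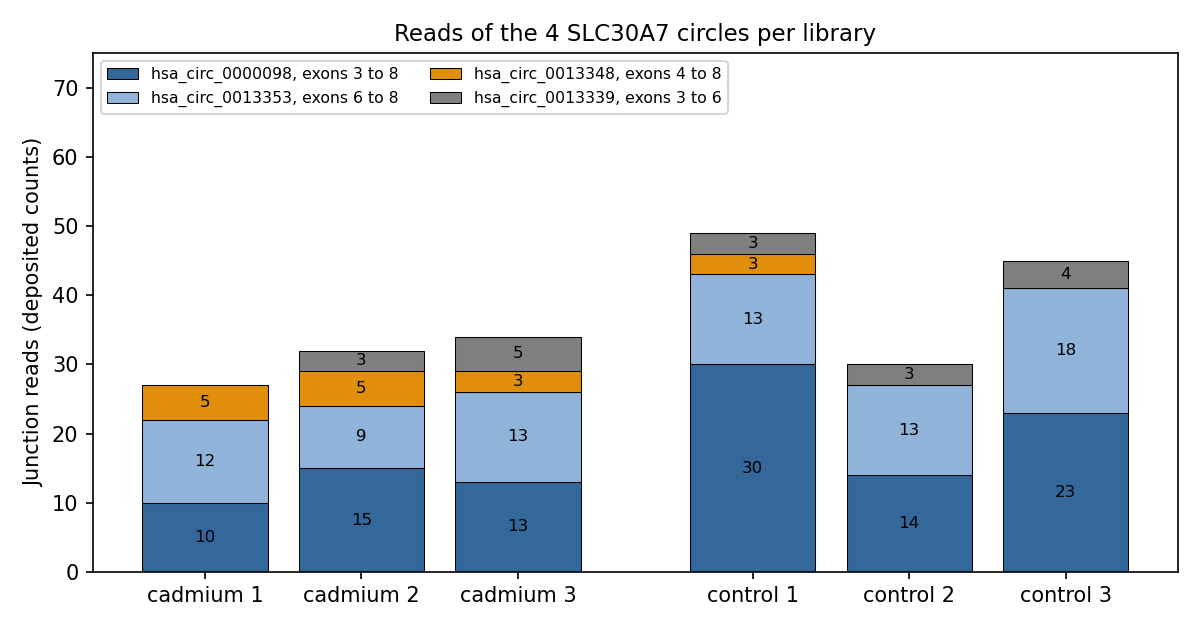
Deposited junction reads of the 4 SLC30A7 circles (stacked bars, vertical axis in reads) in the 3 cadmium and the 3 control libraries. The circle of exons 4 to 8 has 5, 5 and 3 reads with cadmium and 3, 0 and 0 in controls, while the circles of exons 3 to 8 and 6 to 8 hold most reads in each library.

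For SLC30A9 and SLC39A9 the mix could not be told from the spread between libraries. The long SLC30A9 circle hsa_circ_0069590 took 58.5% ± 12.2 of the gene's reads with cadmium and 58.5% ± 26.3 in controls (± SD of 3 libraries, exact permutation p = 1.0), with 28.6% in control replicate 2 and 77.8% in control replicate 3. In SLC39A9 the share of hsa_circ_0032349 ran from 18.2% to 100% with cadmium and from 0% to 50.0% in controls. As single circRNAs, hsa_circ_0069590 and novel_circ_0029559 of SLC30A9 had log2 fold changes of 0.00 and 0.19, each with a sign that turned in other fits (edgeR adjusted p = 1.0 and 0.970).

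The deposited annotation also gives reads at each circle's locus that do not cross the junction, a second readout that the choice of members did not use. Each junction read was weighted by 2, and its share among weighted junction and non-junction reads was computed per gene. Over 5903 circRNAs of 2805 host genes listed in every library it was 29.8%, 31.5% and 30.1% in cadmium replicates 1 to 3, against 46.0%, 29.0% and 48.8% in control replicates 1 to 3. SLC39A8 had the highest share among the 5 member genes with all values, at 88.2%, 87.0% and 82.4% with cadmium, against 91.6%, 79.4% and 94.7% in controls. By its mean share it lay above 94.7% of the 2805 genes. The group means were 85.8% ± 3.09 with cadmium and 88.6% ± 8.12 in controls (± SD of 3 libraries, difference -2.72 percentage points, exact permutation p = 0.6, adjusted p = 0.7 over 5 genes). Leaving out control replicate 2 gave -7.31 points, control replicate 3 gave 0.371, control replicate 1 gave -1.2 and cadmium replicate 3 gave -0.968. With each library's share over all hosts taken off, an alternative chosen after seeing the data, the difference for SLC39A8 was 8.04 points (exact permutation p = 0.1). That reverses the sign, and 0.1 is the lowest p possible with 3 against 3 libraries. The non-junction reads of the SLC39A8 locus were 4, 3 and 6 with cadmium and 9, 13 and 3 in controls. Their sums were 13 and 25, whereas over all hosts they were 1718489 with cadmium and 1360437 in controls.

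At the other loci the junction share also overlapped between groups. It was 54.5% ± 8.72 with cadmium and 45.0% ± 28.7 in controls for SLC30A5 (exact permutation p = 0.7), with 15.8% in control replicate 2, the library that has 3 junction reads and 32 non-junction reads there. For SLC30A7 it was 44.4% ± 0.893 with cadmium and 53.7% ± 15.4 in controls (p = 0.4 by exact permutation). Only 2 of the 4 SLC30A7 circles, hsa_circ_0000098 and hsa_circ_0013353, are listed in every library and enter this share. SLC30A9 had the lowest share, at 26.4% ± 8.27 with cadmium and 33.3% ± 22.4 in controls (p = 0.7 by exact permutation). SLC39A11 had 49.7% ± 24.2 with cadmium and 62.4% ± 7.98 in controls (± SD of 3 libraries, exact permutation p = 0.5, adjusted p = 0.7 for all 4 genes). In SLC39A8, SLC30A5, SLC30A7 and SLC30A9, as over all hosts, the highest value was that of control replicate 1 or 3, while in SLC39A11 it was that of cadmium replicate 2. These differences rest on single libraries: SLC30A5 had 9.43 points, but -5.19 without control replicate 2 and 23.5 without control replicate 3. SLC30A7 had -9.38, but -17.6 and -2.36 without these libraries. SLC30A9 had -6.88, but leaving out control replicate 2 gave -18.0, control replicate 1 gave 4.45 and cadmium replicate 3 gave -2.11. SLC39A11 had -12.7, but leaving out cadmium replicate 2 gave -25.9, cadmium replicate 3 gave -2.1 and control replicate 3 gave -8.18. Over all hosts 10.1% had groups that did not overlap with cadmium lower and 0.642% with cadmium higher, and 0 of the 5 member genes were among them. No source used here says how the non-junction reads were counted.

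**Figure D5:**
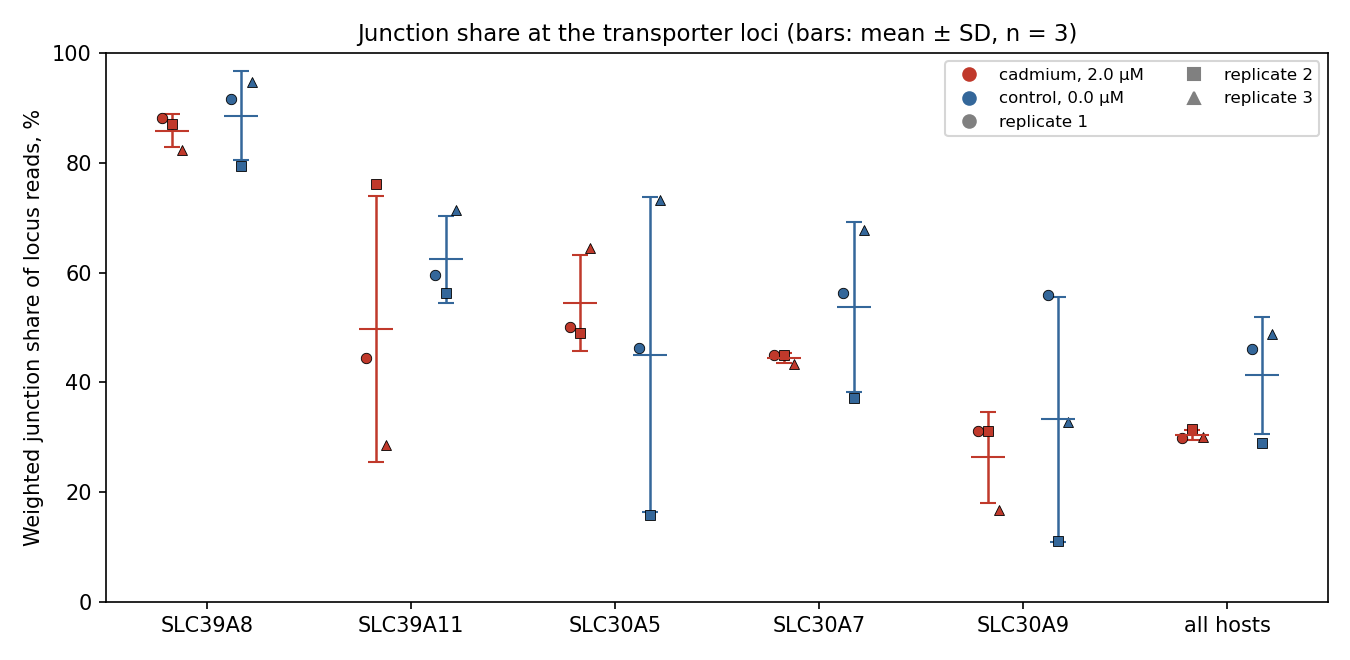
Weighted junction share of locus reads in percent (vertical axis) for the 5 member genes with values in every library and for all hosts summed, cadmium libraries (red) left of controls (blue), 1 point per library, and the mean with SD (n = 3). SLC39A8 stays between 79.4% and 94.7% in all 6 libraries, and over all hosts control replicates 1 and 3 stand at 46.0% and 48.8% above the other 4 libraries.

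Other genes of zinc and cadmium handling were read from a list of 53, of which 17 were listed as hosts and 16 were tested. None of the 16 rose or fell, where 0.233% of all 3008 tested host genes passed the adjusted threshold. Of the 16, 6 had positive and 10 negative log2 fold changes, with a median of -0.12. Over all 3008 host genes 1505 were positive and 1503 negative, with a median of 0.00. Whether the 16 differ from all host genes was not tested. None of the 9 metallothionein and metal-sensor genes, whose protein products bind cadmium or switch on metallothionein, was listed as a host. Of the channels and carriers named as cadmium routes 3 were tested, and TRPC1, a cation channel gene, had the smallest p. It stood at 1230 ± 220 CPM with cadmium and 1710 ± 187 CPM in controls (± SD of 3 libraries; log2 fold change -0.47 with SE 0.15, edgeR adjusted p = 0.216). SLC11A2, which encodes the iron carrier DMT1, was too weak to test, at 15.5, 30.6 and 26.1 CPM with cadmium and 18.7, 0 and 0 CPM in controls, and is listed through the cadmium libraries. Of the efflux and glutathione genes 2 were tested, and ABCC1, a pump for glutathione conjugates, had a log2 fold change of 0.32 (SE 0.20, edgeR adjusted p = 0.544). From the part of the list headed iron, copper and manganese transport 6 genes were tested. The smallest p was that of ATP13A3, a transport ATPase gene placed there by the list alone (log2 fold change 0.36 with SE 0.17, edgeR adjusted p = 0.400). Among 5 redox genes it was that of KEAP1, which encodes the sensor that holds NRF2 in check. KEAP1 was listed at 0, 0 and 104 CPM with cadmium and at 103, 89.3 and 115 CPM in controls. Its single circle is listed through the controls, so its p-value is not given. The single circle of TFRC is listed through the controls too, at 54.1, 0 and 97.8 CPM with cadmium and 74.9, 52.1 and 70.1 CPM in controls. KEAP1 and TFRC are still counted among the 16 tested genes, their 10 negative log2 fold changes and their median.

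Host genes whose profile over the 6 libraries was most like that of each main member were found by the root mean square difference of centred log2 CPM. The nearest to SLC39A8 were LATS1, a kinase gene of the Hippo pathway (0.111), MTR, the gene of methionine synthase (0.119), and PTPRG, a receptor tyrosine phosphatase gene (0.134). The median over all hosts was 0.620. Their log2 fold changes were -0.95, -0.82 and -1.07 (edgeR adjusted p = 0.203, 0.203 and 0.0015), so PTPRG fell past the threshold at a fold close to that of SLC39A8 but with a mean of 1550 CPM against 145 CPM. The nearest to SLC30A5 were PILRB (0.192), C17orf53 (0.195) and CHFR (0.211), against a median of 0.765. For SLC30A7 they were CLNS1A (0.0495), BBX (0.0651) and HTT (0.0665), against 0.365. For SLC30A9 they were PPP4R3A (0.126), MDN1 (0.164) and VAMP7 (0.168), for SLC39A11 SPATA5 (0.101), USP3 (0.111) and CMC1 (0.114), and for SLC39A9 PTK7 (0.229), GPKOW (0.233) and LRP5L (0.250). These were picked as the closest among all tested host genes over 6 libraries and are a description.

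The authors' deposited table marks 2 of the 12 members as significant, where 5.13% of its 9857 entries carry that mark, which it gives up to an unadjusted p of 0.05. In the authors' deposited table the SLC39A8 circle hsa_circ_0002782 has mean normalised reads of 13.9 with cadmium and 29.0 in controls, a log2 fold change of -0.85, an unadjusted p of 0.019 and an adjusted p of 0.986. The SLC30A4 circle novel_circ_0008629 has 0 with cadmium and 4.15 in controls in the authors' deposited table, with an unadjusted p of 0.0175 and no adjusted p. Because this circle is listed through the controls, its p-value and its mark are tied to that listing. The SLC30A5 circle hsa_circ_0005839 has 15.5 with cadmium and 7.88 in controls there, with a log2 fold change of 0.65 and an unadjusted p of 0.124 in the authors' deposited table. That comparison was made on the same 6 libraries and is not independent of the values above.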

How the data were processed

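Back-splice junctions were sequenced in 3 cadmium and 3 control libraries. The authors' deposited counts are whole junction reads per circRNA, and the deposited TPM values are these counts divided by the library's total, times 1000000, with no length term. The authors' deposited comparison gives group means of normalised reads (a signal without replicates), log2 fold changes and p-values. The submitters' processing notes name hg19, DESeq 1.10.1, Bowtie and Bowtie2 2.2.8 without saying what each was for, and no source used here names the circRNA caller. Deposited positions match GRCh38, not hg19, since 98.0% of exonic circRNAs start and 98.1% end at a GENCODE 29 exon boundary. Exon numbers and printed sequences were taken from GENCODE 29 transcripts.

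Counts were summed per host gene, leaving out 240 circRNAs with several hosts and 74 with none. R 4.3.3 with edgeR 4.0.16 ran the quasi-likelihood test (TMM, robust fit, filterByExpr with minimum count 5 and minimum total 15, Benjamini-Hochberg adjusted p under 0.05). Each SE was derived from the test's F statistic and the fold change. For shares, exact permutation tests (two-sided, scipy 1.17.1) were used, adjusted over the shares of their kind. Alternatives used DESeq2 1.42.0 and limma 3.58.1 on log2(TPM + 1). The tests were tried on simulated counts. Named were all members, per fixed list any host past the threshold or else the one with the smallest p, and the 3 most alike hosts per member. SLC11A2 and TFRC were named after their values were seen. Members and lists were chosen with earlier results of these data known.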

Additional observations from a re-analysis of the deposited data

How the results depend on the processing

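SLC39A8 stayed below 0 in all 14 alternatives (log2 fold change -1.23 to -0.93, edgeR or limma adjusted p 0.157 to 0.625) and SLC30A5 above 0 (0.66 to 2.18, adjusted p 0.291 to 0.676). Neither passed the threshold in any. DESeq2 gave no adjusted p for them. Leaving out 1 library gave -1.23 to -0.93 for SLC39A8, 0.66 to 1.62 for SLC30A5, 0.08 to 0.83 for SLC39A9, -1.03 to -0.50 for SLC39A11, -0.20 to -0.02 for SLC30A7, 3 to 13 called host genes (7 with all libraries) and 0 to 13 called circRNAs (5 with all). Called host genes numbered 4 by limma. Without control replicates 1 and 3 together there were 3 called host genes and 3 called circRNAs. The causes were not tested. Signs turned for SLC30A9 (-0.11 to 0.62 leaving out 1 library), hsa_circ_0013353 (-0.36 to 0.07), hsa_circ_0069590 (-0.38 to 0.74, and -0.02 without a filter on low counts), novel_circ_0029559 (-0.16 to 0.45, and -0.16 without control replicates 1 and 3) and novel_circ_0007749 (-0.34 to 0.78, and -1.16 by limma). With the replicate number as a block, novel_circ_0007749 had -0.07 and SLC39A8 -1.04 (edgeR adjusted p = 0.197), with 6 called host genes and 4 called circRNAs. Same-numbered libraries of the 2 groups deviated together with correlations of 0.000258, 0.0215 and 0.0517 over circRNAs, and not every library correlated best with its own number. These values gave no sign of a pairing by number, but with 3 libraries per group they cannot exclude one. Junction share differences ran, leaving out 1 library, from -7.31 to 0.371 points for SLC39A8, -5.19 to 23.5 for SLC30A5, -17.6 to -2.36 for SLC30A7, -18.0 to 4.45 for SLC30A9 and -25.9 to -2.1 for SLC39A11. With the library's overall share taken off, chosen after seeing the data, they were 8.04 for SLC39A8, 20.2 for SLC30A5, 1.38 for SLC30A7, 3.87 for SLC30A9 and -1.93 for SLC39A11 (exact permutation p = 0.1, 0.3, 0.8, 0.8 and 1.0). This subtraction moves the difference of every gene by the same amount. Circle share differences ran from -3.65 to 3.70 points for hsa_circ_0013339, -4.73 to 4.72 for hsa_circ_0013353, -15.0 to 9.56 for hsa_circ_0069590 and -9.56 to 15.0 for novel_circ_0029559. Counts of 0 to 49 reads per member and library limit all of these values.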

Other observations

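Within a library, the reads of 2 genes can be set against each other without any scaling. These ratios were chosen after the values were seen and are given with no test. SLC39A8 had 1.15, 0.909 and 0.70 times the reads of SLC30A5 in cadmium replicates 1 to 3, against 5.44, 8.33 and 1.80 times in control replicates 1 to 3. The importer circle was thus counted about as often as the exporter circle in cadmium libraries and more often in every control. The 8.33 rests on 3 SLC30A5 reads in control replicate 2. Against SLC30A7 the ratio for SLC39A8 was 0.556, 0.312 and 0.412 with cadmium, against 1.0, 0.833 and 0.60 in controls. Both ratios share the SLC39A8 reads and are not independent of its fold change.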
